A study of Homo sapiens with 6 samples.

Results

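A set of 10 genes of epithelial surfaces was followed on bead arrays of the human cell line HuCCT1, derived from a cholangiocarcinoma (a cancer of the bile ducts): CEACAM1, CEACAM5, CEACAM6, CEACAM7, TFF1, TFF2, TFF3, SCGB1A1, LCN2 and AGR2. They were taken by symbol, with every probe the platform annotation assigns to them, which gave 13 probes out of 29285 (10 of 19432 named genes). The 3 WTAP arrays hold RNA of HuCCT1 cells labelled as stably overexpressing WTAP, and the 3 mock arrays hold RNA of HuCCT1 cells with the empty vector. WTAP belongs to the m6A writer complex, which it helps to place at messenger RNA. In each group the arrays carry the numbers 4, 5 and 6. The labels do not say that the arrays of a group come from separate cultures, nor whether each line is 1 clone, so the p-values measure the spread between these arrays, which may be technical.

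The CEACAM proteins are adhesion molecules of the immunoglobulin superfamily on the surface of epithelial and some blood cells. CEACAM1 crosses the membrane and has a signalling tail, while CEACAM5 (carcinoembryonic antigen, a serum tumour marker), CEACAM6 and CEACAM7 are held by a lipid anchor. Trefoil factors are small secreted peptides that accompany mucins and aid the repair of mucosa: TFF1 and TFF2 are known from the stomach, and TFF3 from goblet cells and bile ducts. SCGB1A1 (uteroglobin) is secreted by airway club cells, LCN2 (lipocalin 2) withholds iron from bacteria by binding their siderophores, and AGR2 is a disulfide isomerase of the endoplasmic reticulum needed for mucin production.

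The 4 CEACAM genes lie on chromosome 19, and their promoters are shown because the genes are close relatives of which 1 rose, 1 was detected without passing the test and the others were not detected. The letters are from RefSeq (GRCh38.p14), from 250 bases before to 50 after the annotated start, written 5′ to 3′. Capitals mark the palindrome CACGTG, a core bound by the USF and MYC families, and the G-rich run GGGGAGGGG, searched on both strands. Both motifs were chosen after the sequences were seen and do not overlap.
CEACAM6, chr19:41755280-41755579, plus strand: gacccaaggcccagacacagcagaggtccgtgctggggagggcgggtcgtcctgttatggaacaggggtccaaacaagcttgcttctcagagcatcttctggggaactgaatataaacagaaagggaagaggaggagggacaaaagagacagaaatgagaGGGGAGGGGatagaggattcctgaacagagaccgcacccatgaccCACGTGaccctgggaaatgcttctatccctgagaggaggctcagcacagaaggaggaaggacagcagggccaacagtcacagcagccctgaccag
CEACAM5, chr19:41708376-41708675, plus strand: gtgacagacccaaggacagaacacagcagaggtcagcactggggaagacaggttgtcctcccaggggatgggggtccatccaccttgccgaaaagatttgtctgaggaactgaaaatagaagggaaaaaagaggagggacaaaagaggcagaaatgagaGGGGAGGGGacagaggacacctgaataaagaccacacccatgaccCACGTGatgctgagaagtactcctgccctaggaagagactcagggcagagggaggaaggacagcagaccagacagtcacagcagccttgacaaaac
CEACAM7, chr19:41688221-41688520, minus strand: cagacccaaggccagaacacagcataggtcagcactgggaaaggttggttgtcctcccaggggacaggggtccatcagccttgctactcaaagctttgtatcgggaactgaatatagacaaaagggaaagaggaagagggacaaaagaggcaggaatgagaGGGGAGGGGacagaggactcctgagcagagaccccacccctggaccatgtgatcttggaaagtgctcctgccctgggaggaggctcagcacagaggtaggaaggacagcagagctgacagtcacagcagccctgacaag
CEACAM1, chr19:42528432-42528731, minus strand: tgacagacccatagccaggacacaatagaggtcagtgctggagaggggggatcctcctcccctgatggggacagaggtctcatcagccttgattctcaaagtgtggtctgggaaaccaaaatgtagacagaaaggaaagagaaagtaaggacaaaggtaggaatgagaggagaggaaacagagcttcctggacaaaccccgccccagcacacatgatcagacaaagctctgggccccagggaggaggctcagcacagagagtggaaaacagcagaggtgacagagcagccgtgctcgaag
CACGTG stood in the CEACAM6 and CEACAM5 windows and in 7.26% of 35116 promoters of the same length. GGGGAGGGG stood in the CEACAM6, CEACAM5 and CEACAM7 windows and in 7.81% of promoters. In global alignments the CEACAM6 window was identical to that of CEACAM7 at 80.5% of columns, to that of CEACAM5 at 74.7% and to that of CEACAM1 at 68.2%. The CEACAM6 and CEACAM5 windows hold the same motifs, and of this pair the CEACAM6 probe alone was detected. Of the 10 genes, 6 matched an entry of the promoter table. The arrays read transcript levels and not binding, so the motifs are a description of the sequence.

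A probe was taken as detected where its detection p, a comparison with the negative control beads on the same array, was under 0.05. Median signals lay between 191.4 and 202.8. The WTAP arrays detected 15071 to 15537 probes, fewer than each of the mock arrays (15749 to 16307). What this difference does to the detection calls was not tested. Each probe detected on at least 3 arrays was tested with limma after background correction and quantile normalization, and 3020 of 15830 (19.1%) passed a Benjamini-Hochberg adjusted p of 0.05. The WTAP probe of highest mean read 1123.3, 1050.4 and 1017.6 signal units on WTAP arrays 4, 5 and 6, against 1018.6, 1123.7 and 1059.6 on mock arrays 4, 5 and 6, and the groups overlapped. On the normalized log2 scale it read 9.90 ± 0.06 on WTAP arrays and 9.84 ± 0.06 on mock arrays (SD, n = 3 each, limma over genes, adjusted p = 0.703), so the direction of the changes rests on the labels. The other WTAP probe tested had a log2 fold change of -0.01 ± 0.15 (SE, limma over probes, adjusted p = 0.970). Whether the WTAP probes lie in the sequence carried by the vector was not tested. All 7 cholangiocyte markers with a probe, among them KRT7, KRT19 and EPCAM, were detected on the 6 arrays, and 0 passed the test (0 also at an unadjusted p under 0.05, limma). Under 2 of 16 alternatives, the processed table of the authors and a trended and robust variance, 1 of these markers was higher. Of 7 leukocyte markers with a probe, CD14, CD68 and LCP1 were detected on all arrays, and PTPRC and CD3E on 0. Of 8 neutrophil markers, FCGR3B was detected on all arrays, and MPO, ELANE, CEACAM8, CSF3R and S100A12 on 0. The 5 of these genes that were tested, MS4A1 included, did not pass (0 also at an unadjusted p under 0.05, limma). Of 8 fibroblast markers, COL1A1 and LUM were detected on all arrays and 5 (COL3A1, DCN, PDGFRB, PDGFRA and THY1) on 0. COL1A1 rose by 0.74 ± 0.14 (SE, limma over genes, adjusted p = 0.00991), and LUM had 1.03 ± 0.33 and did not pass (SE, limma over genes, adjusted p = 0.0632). COL1A2, the third one tested, had 0.12 ± 0.22 and did not pass (SE, limma over genes, adjusted p = 0.751). Under 8 of 16 alternatives, the replicate block among them, 2 fibroblast markers were higher, and the part of these genes in the results was not tested. Of 8 hepatocyte markers, ALB and SERPINA1 were detected on all arrays, and APOA2, CYP3A4, TAT and HP on 0. The 2 hepatocyte markers tested, ALB and SERPINA1, did not pass (1 lower at an unadjusted p under 0.05, limma). However, 1 was lower with the replicate block and with detection required on all arrays. In bulk RNA, fewer cells with a transcript and less of it in each cell cannot be told apart.

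The 10 genes fell into those read on every array and those at or near background. In all, 6 probes of 4 genes (CEACAM1, CEACAM6, LCN2 and AGR2) were detected on all 6 arrays, TFF2 on 3 arrays and SCGB1A1 on 4. The other 5 probes were detected on at most 1 array: those of CEACAM5, CEACAM7 and TFF3 on 0, and that of TFF1 and the third CEACAM1 probe on 1 each. Of the 8 tested probes, 3 were higher on the WTAP arrays, those of CEACAM6, TFF2 and SCGB1A1, and 0 were lower (0 also at an unadjusted p under 0.05, limma). Among all tested probes 9.64% were higher and 9.44% lower. TFF2 passed the filter through its WTAP arrays alone and SCGB1A1 with 1 mock array, so the count among tested probes is no evidence about the 10 genes.

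**Figure D1:**
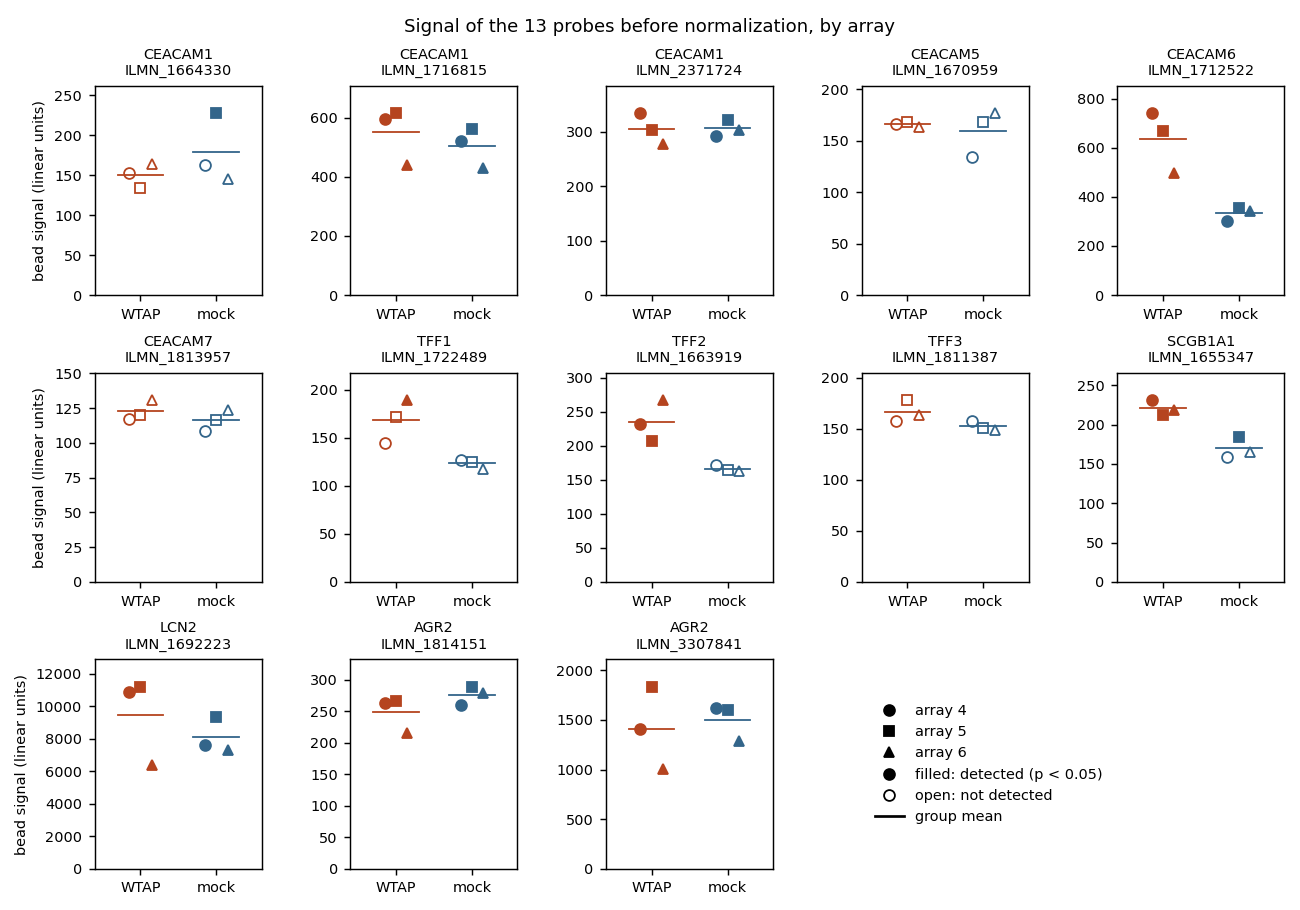
Bead signal before normalization (linear units, each panel with its own axis from 0) of the 13 probes on the 3 WTAP arrays (left) and 3 mock arrays (right). Filled symbols are detected, open ones are not, shapes give the array number and lines the group means. The CEACAM6 signals on WTAP arrays, 495.6 to 741.6, lie above the mock signals, 301.6 to 355.7.

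CEACAM6 is the 1 of the 3 higher genes that was detected on every array. Its probe read 741.6, 667.4 and 495.6 signal units on WTAP arrays 4, 5 and 6, against 301.6, 355.7 and 343.1 on mock arrays 4, 5 and 6. The 3 WTAP signals lay above the 3 mock signals, with WTAP array 6 nearest to them. On the normalized log2 scale the means were 8.99 ± 0.34 on WTAP arrays and 7.65 ± 0.16 on mock arrays (SD, n = 3 each). The log2 fold change was 1.34 ± 0.18 (SE, limma adjusted p = 0.00254, over 22 alternatives 4.32e-05 to 0.0271), or 2.53-fold with a 95% interval of 1.90 to 3.38. With no background correction the log2 fold change was 0.95. It was positive between the arrays of each number (1.78, 1.36 and 0.88 for numbers 4, 5 and 6). CEACAM genes share long stretches of sequence, and whether the CEACAM6 probe also binds transcripts of its relatives was not tested.

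CEACAM1 did not pass the test on either probe that was detected throughout. The brighter probe read 595.0, 615.6 and 441.0 on WTAP arrays 4, 5 and 6, against 520.1, 560.8 and 429.4 on mock arrays 4, 5 and 6. The groups overlapped, and array 6 was the lowest of both, although WTAP was the higher in each of the 3 pairs of like-numbered arrays. Its log2 fold change was 0.22 ± 0.19 (SE, limma adjusted p = 0.464), with a 95% interval of the fold of 0.864 to 1.57. The second probe had a log2 fold change of 0.02 ± 0.12 (SE, limma adjusted p = 0.941) and an interval of the fold of 0.831 to 1.23. Both intervals end below the lower bound of the CEACAM6 fold, a comparison of separate intervals and not a test of the difference. The third probe is annotated to another transcript record of CEACAM1 than the brighter and the second probe. It was detected on mock array 5 alone, with 227.5 there and 134.3 to 163.5 on the other 5 arrays. Whether the transcripts of CEACAM1 differ in level was not tested.

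CEACAM5 and CEACAM7 stayed at the level of the negative controls in both groups. The CEACAM5 signals were 166.4, 167.9 and 163.6 on WTAP arrays 4, 5 and 6, against 134.7, 168.3 and 177.1 on mock arrays 4, 5 and 6, with detection p from 0.122 to 0.505. The CEACAM7 signals ran from 117.0 to 130.9 on WTAP arrays and from 108.2 to 123.9 on mock arrays. The signals of both genes overlapped between the groups. A transcript below this background could not be seen on these arrays. When all 29285 probes were tested without a filter, where 8.35% passed, the adjusted p was 0.832 for CEACAM5 and 0.771 for CEACAM7 (limma).

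Among the trefoil genes, TFF2 was detected on all WTAP arrays and on 0 mock arrays. Its signals were 232.8, 206.8 and 267.6 on WTAP arrays 4, 5 and 6, against 171.3, 164.9 and 162.7 on mock arrays 4, 5 and 6. The groups did not overlap, and WTAP array 6, the lowest WTAP array for CEACAM6, was the highest for TFF2. As TFF2 was not well above background on any mock array, its fold is a bound, at least 1.76-fold higher on WTAP arrays. The bound is set against the lowest normalized signal among detected probes of each mock array. This bound is on the means and leaves out the spread between arrays, for which the fitted 95% interval started at 1.51-fold. The measured log2 means were 6.70 ± 0.50 on WTAP arrays and 5.57 ± 0.19 on mock arrays (SD, n = 3 each). Their difference of 1.14 passed (limma adjusted p = 0.0144), and this p-value is not of the bound. Uncorrected for background this difference was 0.50, and it was 0.47 in the processed table of the authors, and the ratio of the mean signals was 1.42, all below the bound that holds after background correction. Without any one of the WTAP arrays the probe was detected on only 2 arrays and was not tested. With the filter kept, it passed without mock array 4, 5 or 6, in 2 of these fits narrowly (limma adjusted p = 0.0277, 0.0480 and 0.0481). In the unfiltered fit, an alternative added after the data were seen, its adjusted p was 0.0294 with all arrays, and the call was lost without WTAP array 4 (0.0876) or mock array 4, 5 or 6 (0.0568, 0.0943 and 0.0913, limma, over 18 alternatives 0.00458 to 0.0943).

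TFF1 and TFF3 were below the filter. The TFF1 signals were 144.5, 172.0 and 189.5 on WTAP arrays 4, 5 and 6, against 127.0, 125.3 and 117.8 on mock arrays 4, 5 and 6, and WTAP array 6 alone was called detected, with a detection p of 0.0314. The WTAP signals lay above the mock signals, but in the unfiltered fit the log2 difference of 0.66 ± 0.21 did not pass (SE, limma adjusted p = 0.0999). The TFF3 probe read 158.1 to 178.3 on WTAP arrays and 148.4 to 157.8 on mock arrays before normalization. After normalization its groups overlapped, with a difference of 0.21 ± 0.13 (SE, limma adjusted p = 0.401 without a filter).

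SCGB1A1 was higher on WTAP arrays, at a signal near background in both groups. Its probe read 231.5, 212.5 and 218.6 on WTAP arrays 4, 5 and 6, against 159.1, 184.9 and 165.2 on mock arrays 4, 5 and 6. It was detected on the 3 WTAP arrays and on mock array 5, where the detection p was 0.0486, and the groups did not overlap. The log2 means were 6.52 ± 0.17 on WTAP arrays and 5.62 ± 0.19 on mock arrays (SD, n = 3 each). The log2 fold change was 0.90 ± 0.14 (SE, limma adjusted p = 0.00503), or 1.87-fold with a 95% interval of 1.49 to 2.35 after background correction. The mock level was above background on 1 of 3 arrays, so the size of this fold depends on that correction. Without background correction the log2 fold change was 0.38, and the processed table gave 0.36, with the call kept in both (limma adjusted p = 0.0102 and 0.0121, over 21 alternatives 0.00492 to 0.0414).

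LCN2, the lipocalin, did not pass the test, with 1 WTAP array apart from the others. Its signals were 10890.7, 11189.6 and 6364.5 on WTAP arrays 4, 5 and 6, against 7590.1, 9340.7 and 7327.4 on mock arrays 4, 5 and 6. WTAP arrays 4 and 5 lay above all mock arrays and WTAP array 6 below them. The log2 fold change was 0.25 ± 0.22 (SE, limma adjusted p = 0.490), with a 95% interval of the fold of 0.830 to 1.70. Without WTAP array 6 it was 0.51, just past the threshold (limma adjusted p = 0.0478, over 22 alternatives 0.0478 to 0.898). Between arrays of the same number the log2 difference was 0.56 for number 4, 0.33 for number 5 and -0.15 for number 6.

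AGR2, the disulfide isomerase, was detected on every array by both probes and neither passed. The brighter probe read 1403.5, 1834.2 and 1000.7 on WTAP arrays 4, 5 and 6, against 1620.1, 1595.8 and 1282.7 on mock arrays 4, 5 and 6. The groups overlapped, with WTAP array 6 again the lowest. Its log2 fold change was -0.06 ± 0.24 (SE, limma adjusted p = 0.885), with a 95% interval of the fold of 0.658 to 1.39. The dimmer probe had a difference of -0.30 ± 0.16 (SE, limma adjusted p = 0.229), with normalized WTAP values of 6.55 to 7.07 just below the mock values of 7.09 to 7.26. In all, the normalized groups did not overlap for 4 of the 8 tested probes, 3 with WTAP higher and this one with WTAP lower, where 38.2% of all tested probes did not overlap.

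**Figure D2:**
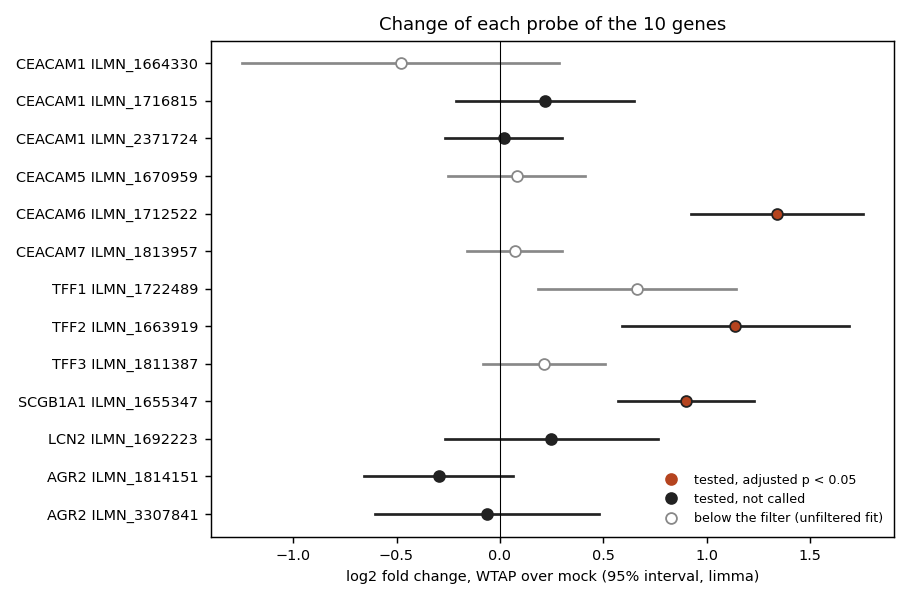
Log2 fold change of WTAP over mock arrays with its 95% interval (limma, 3 arrays in each group) for the 13 probes. Orange points passed an adjusted p of 0.05, black points were tested and did not pass, and open points are probes below the detection filter, from the fit without a filter. The intervals of CEACAM6, TFF2 and SCGB1A1 start at 0.93, 0.59 and 0.57 on the log2 scale.

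Of the 20 tested genes nearest to the cluster of CEACAM5, CEACAM6 and CEACAM7, 10 on each side, 1 was higher and 1 lower, with log2 fold changes of -0.69 to 0.64 around a median of -0.04. Around CEACAM1 the median of 20 genes was -0.10, with 1 higher and 2 lower, and 7 of these genes also flank the other CEACAM cluster, among them the lower gene ERF. Around the trefoil genes on chromosome 21 it was -0.01, with 1 higher and 3 lower. The 1 higher gene there was TMPRSS3, a membrane serine protease gene that is the nearest tested gene beside the cluster (0.99, limma adjusted p = 0.0125), and PDE9A, 2 tested genes further on, fell by 1.91 on the log2 scale (limma adjusted p = 0.00100). Both are named after their values were seen. Among all genes tested 20.4% passed, 10.5% higher and 9.91% lower. After subtraction of the median change of the neighbouring genes the log2 fold changes were 1.32 for CEACAM6, 1.14 for TFF2 and 0.94 for SCGB1A1, and all 3 passed.

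**Figure D3:**
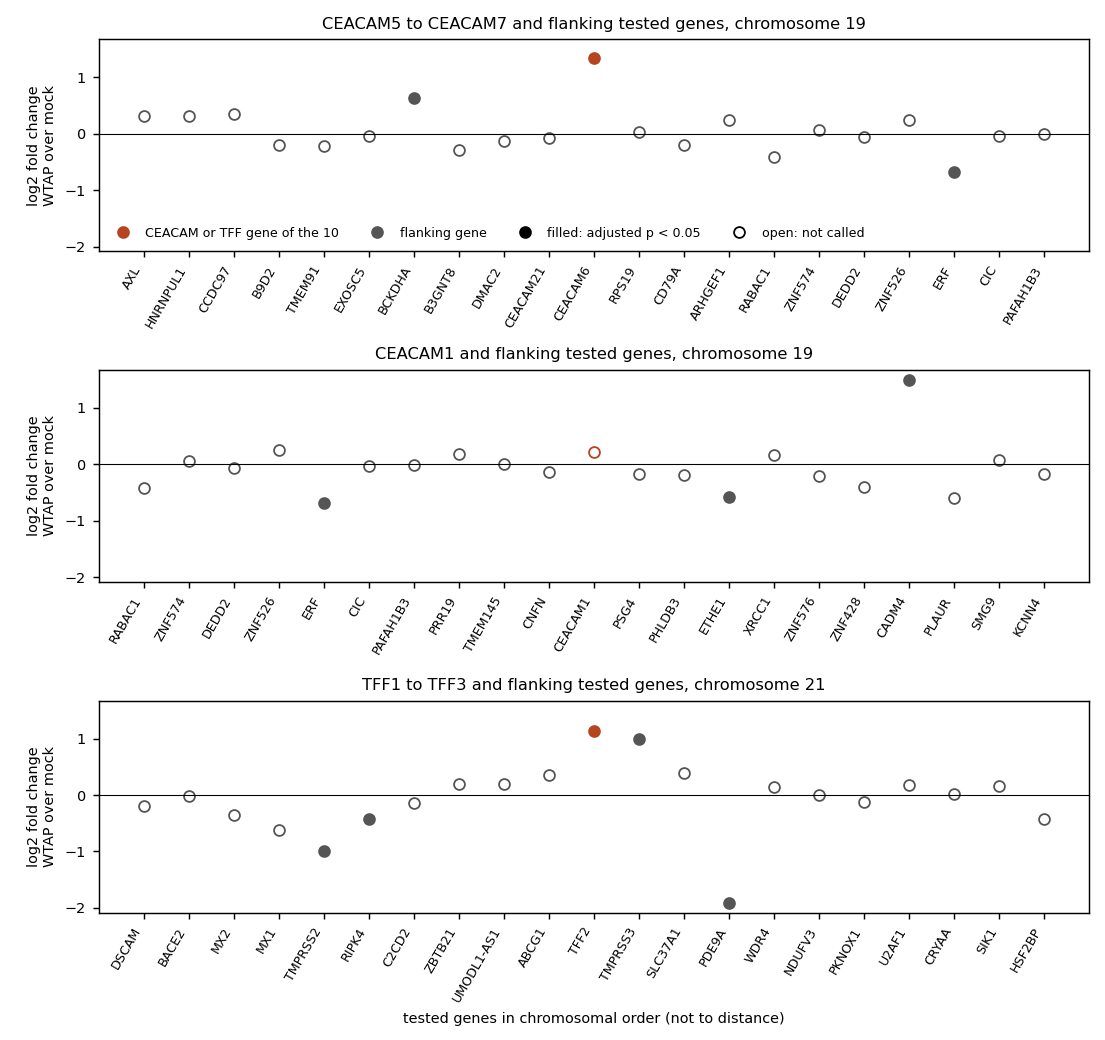
Log2 fold change of WTAP over mock arrays for the tested CEACAM and TFF genes (orange) and the 10 tested genes on each side (grey), in chromosomal order, 1 probe a gene. Filled points passed an adjusted p of 0.05 (limma). CEACAM6, at 1.34, stands above its 20 neighbours, which span -0.69 to 0.64.

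Other families of the same kind held few detected genes. Of 17 other CEACAM and PSG genes with a probe, 13 were detected on 0 arrays and 2 were tested, CEACAM21 (-0.07) and PSG4 (-0.16), of which 0 passed (0 also at an unadjusted p under 0.05, limma). Of 19 further secretoglobins, lipocalins and AGR2 relatives, 13 were detected on 0 arrays and 5 were tested, with 0 past the threshold and 1 higher at an unadjusted p under 0.05 (limma). AGR3, the nearest relative of AGR2, had a log2 fold change of 0.05 ± 0.18 (SE).

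In a list of other mucosal proteins, mostly secreted, genes changed in both directions. Of 30 with a probe, 13 were tested, 4 were higher and 1 lower, where 10.5% of all genes tested were higher and 9.91% lower. The median log2 fold change of the 13 was 0.22, and 0.003 over all genes. GKN1 and PSCA passed the filter with 1 mock array detected, so that neither the count nor the median is evidence of a shift of the list. With detection required on all arrays 1 was higher. The gastrokine genes GKN1 and GKN2, which encode secreted proteins of the gastric surface epithelium, rose by 1.48 ± 0.21 and 1.17 ± 0.21 (SE, limma adjusted p = 0.00322 and 0.00736). Both were close to background in mock cells, so these sizes depend on the background correction, GKN1 with 3 WTAP arrays and 1 mock array detected, and GKN2 with 3 WTAP arrays and 2 mock arrays. WFDC2, a secreted whey acidic protein family member detected on every array, rose by 0.83 ± 0.14, and PSCA, a lipid-anchored surface antigen known from prostate and stomach, rose by 0.79 ± 0.15 (SE, limma adjusted p = 0.00531 and 0.00999). TCN1, a vitamin B12-binding protein, fell to 6.88 ± 0.21 on WTAP arrays, against 9.92 ± 0.16 on mock arrays (log2, SD, n = 3 each, limma adjusted p = 2.49e-05).

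Transcription factors of mucosal epithelia changed both ways. Of 13 tested, 3 were higher and 2 lower, beside 10.5% and 9.91% of all genes. NR5A2 passed the filter through its WTAP arrays alone, so the count is no evidence of a shift of the list. With detection required on all arrays 2 were higher. NR5A2, a nuclear receptor of liver, pancreas and gut, was detected on 0 mock arrays and was at least 2.88-fold higher on WTAP arrays. Its p-value is of the fitted log2 difference, 2.07 ± 0.18 (SE, limma adjusted p = 0.000491), and not of the bound. This bound is on the means after background correction and leaves out the spread between arrays. Uncorrected for background the log2 difference of NR5A2 was 0.97, and the processed table of the authors gave 0.93, both below the bound. ELF3, an epithelial ETS factor, rose by 1.24 ± 0.24, and CDX2, a homeobox factor of the intestine, rose by 0.93 ± 0.19 (SE, limma adjusted p = 0.00932 and 0.0115). CDX2 lies on chromosome 13, and after subtraction of its neighbours its change was 0.52 and did not pass (limma adjusted p = 0.0945, over 16 alternatives 0.00489 to 0.0945). NR5A2 and ELF3 lie on chromosome 1, and the same subtraction left 1.72 and 0.90, which passed (limma adjusted p = 0.00122 and 0.0437). SPDEF, a factor of goblet cell maturation that is known to act on AGR2 and trefoil genes, fell by 1.39 on the log2 scale, to 7.28 ± 0.17 on WTAP arrays, against 8.66 ± 0.09 on mock arrays (SD, n = 3 each, limma adjusted p = 0.000504). FOXA3, a forkhead factor of liver and gut, fell by 0.74 (limma adjusted p = 0.00577), while FOXA1 and FOXA2 had 0.26 and -0.20 and did not pass.

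Genes whose products bind or relay the 10 proteins gave 0 higher and 3 lower of 8 tested (4 lower and 0 higher at an unadjusted p under 0.05, limma). Over all 11586 genes 9.91% were lower and 10.5% higher, and at an unadjusted p under 0.05 there were 1997 lower and 2073 higher. The list was chosen with earlier results of these data known, so its counts are no evidence of a shift of the list. In the fits that lost the call of EGFR, given below, 2 of its genes were lower. MMP9, a gelatinase that forms a complex with LCN2, fell by 2.79 on the log2 scale, to 7.82 ± 0.39 on WTAP arrays, against 10.61 ± 0.49 on mock arrays (SD, n = 3 each, limma adjusted p = 0.000668). TGFBR2, a receptor subunit of TGF-beta, whose signalling CEACAM5 and CEACAM6 are known to affect, fell by 1.22 (limma adjusted p = 0.000993). EGFR fell by 0.42 (limma adjusted p = 0.0238), but its second tested probe had 0.29 and did not pass, and the call was lost without mock array 4 or 5, without WTAP array 4 or 5 and after subtraction of neighbouring genes (limma adjusted p = 0.0705, 0.0819, 0.0678, 0.0577 and 0.117, over 16 alternatives 0.00465 to 0.117). PTPN6 and PTPN11, phosphatases that bind the CEACAM1 tail, had 0.04 and 0.13 and did not pass.

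**Figure D4:**
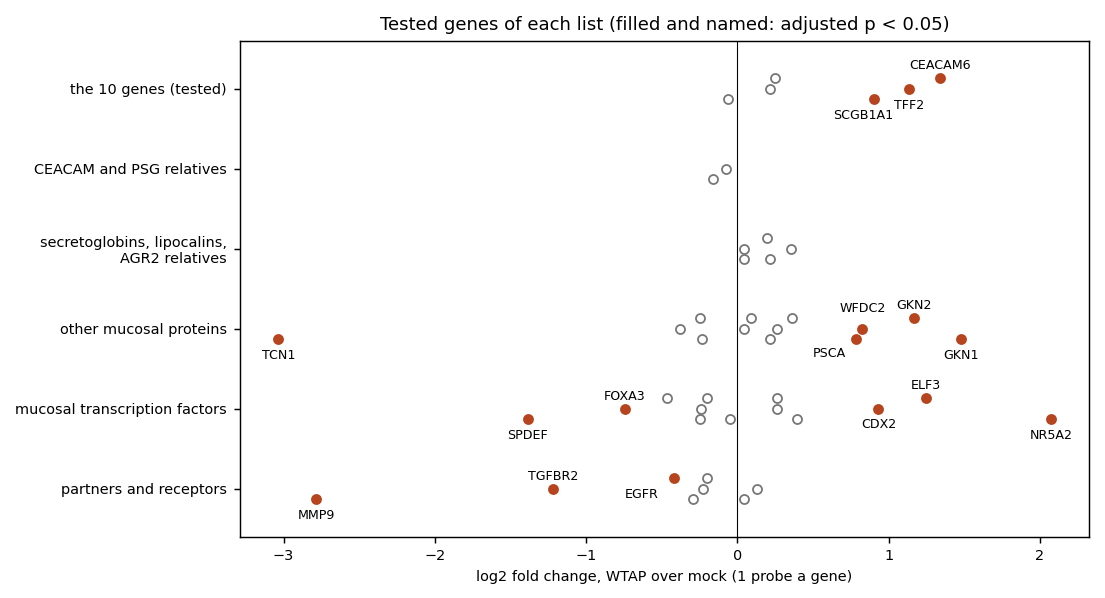
Log2 fold change of WTAP over mock arrays for the tested genes of each list, 1 probe a gene. Filled and named genes passed an adjusted p of 0.05 (limma). The 4 called genes to the right among the other mucosal proteins, PSCA of the cell surface included, lie between 0.79 and 1.48, and TCN1 lies at -3.03.

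Likeness to a changed gene was measured as the root mean square difference, over the 6 arrays, of each gene's deviations from its own mean, on the log2 scale. For CEACAM6 the nearest of the tested genes were GPRC5C (0.092), HBG2 (0.094) and HRK (0.114), for TFF2 they were CCNE2 (0.181), ZSCAN5A (0.188) and KRT34 (0.190), and for SCGB1A1 they were PSCA (0.084), SNX16 (0.085) and C14orf139 (0.095). The distances describe 6 arrays in 2 groups, so genes with a like change between the groups come first. ZSCAN5A and C14orf139 were detected on 0 mock arrays, as TFF2 was, and PSCA on 1, as SCGB1A1 was. The other nearest genes were detected on all arrays. What signals near background do to these distances was not tested.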

How the data were processed

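Per the file headers, the authors deposited a non-normalized bead intensity and a detection p-value for every probe of each array, and a second table of processed intensity. Per the submitters' processing notes BeadStudio 3.3 was used; the sources used here do not name the background treatment. In the processed table the sorted values of the 6 arrays differed by at most 0.848% at any rank (medians of 196.8 each). Quantile normalization gives such a likeness, and the processed table served as an alternative. Symbols came from the platform annotation, updated by gene ID through RefSeq (GRCh38.p14) for 27819 of 27988 named probes.

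The table of 29377 probes was background-corrected and normalized by neqc (limma 3.58.1, R 4.3.3: normexp with the negative control level inferred from the detection p-values, offset 16, quantile normalization, log2). The 92 probes absent from the processed table were left out of the tests. Probes detected on at least 3 of 6 arrays (15830) were tested one by one with lmFit and eBayes, and 11586 genes through their probe of highest mean for the gene lists, the neighbours and the likeness ranking. Log2 fold changes are WTAP minus mock, and the offset understates those of dim probes. P-values were Benjamini-Hochberg adjusted over all probes or genes. The fit was tested on simulated data. Depth does not apply to arrays; their number limits the precision.

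The text names the 10 genes, up to 4 called genes of each list with the largest change, WTAP, and the 3 nearest genes by likeness. FOXA3 and the list members given without passing were picked after their values were seen. The genes and lists were chosen with earlier results of these data known. Arrays of one number deviated together across genes (correlations of 0.12 for number 4, 0.21 for 5 and 0.23 for 6; arrays of unlike number had -0.20 to 0.02). The titles give each number after the letter p and do not say what the letter or the number marks. The fit with the number as a block was an alternative. The others were the background correction, offset, scaling, filter, variance prior, neighbouring genes and each array left out.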

Additional observations from a re-analysis of the deposited data

How the results depend on the processing

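CEACAM6 and SCGB1A1 kept their direction and their call under every alternative that tested them (CEACAM6 0.94 to 1.53 over 22, SCGB1A1 0.36 to 1.01 over 21, log2), and TFF2 kept its direction (0.47 to 1.39 over 18) but lost its call in 4 of 6 fits with an array left out and no filter. Requiring detection on all arrays removed TFF2 and SCGB1A1 from the test, so that 1 of the 10 genes was called by probe and 1 gene by gene, in place of 3. With 1 array left out, 2 to 3 were called by probe and 2 to 3 gene by gene, the lower count without WTAP array 4 or 5. Without WTAP array 6 the 3 were CEACAM6, SCGB1A1 and LCN2, since TFF2 was not tested there. Over all probes 1706 to 2784 were called with 1 array left out, in place of 3020 (1706 without WTAP array 4, 1857 without WTAP array 5, 1746 without mock array 5 and 1952 without mock array 6), and 1763 after subtraction of neighbouring genes. The replicate block (pairing by array number) gave 3257 calls and changed no call among the 10 genes (adjusted p = 0.00804 for CEACAM6, 0.0196 for TFF2 and 0.0148 for SCGB1A1, limma). Differences near 0 changed sign without passing: the second CEACAM1 probe had -0.0036 with median scaling and -0.075 to 0.088 with 1 array left out (-0.012 without mock array 4), and the brighter AGR2 probe had 0.083 after subtraction of neighbouring genes and -0.31 to 0.19 with 1 array left out (0.0074 without mock array 4); the cause was not tested. Of the other secreted proteins 1 in place of 4 was higher with detection on all arrays. Signals near the negative controls limit what can be said of CEACAM5, CEACAM7, TFF1 and TFF3.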
